A study of Mus musculus with 7 samples.

Results

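The replication-dependent histone genes are the clustered genes that code for linker histone H1 and for the core histones H2A, H2B, H3 and H4. They were taken as every row of the deposited gene table whose symbol begins with Hist1h, Hist2h, Hist3h or Hist4h, which gave 69 of 35976 rows. The rule uses names only and no measured value. By class, 6 members code for H1, 19 for H2A, 19 for H2B, 12 for H3 and 13 for H4. RefSeq lists 67 members as protein-coding and 2, Hist1h2al and Hist3h2bb-ps, as transcribed pseudogenes. In 58 members the mean of the 7 libraries reached 10 normalized counts, and these were tested among 16720 genes. The other 11 (Hist1h2aa, Hist1h2ad, Hist1h2al, Hist1h2ao, Hist1h2ap, Hist1h2ba, Hist1h2br, Hist2h2aa2, Hist2h3c1, Hist2h3c2 and Hist3h2a) stayed below it, and Hist1h2ba and Hist3h2a had no read in any library.

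Cells need new histones each time they copy their DNA, and these genes are transcribed in S phase to supply them. Their mRNAs are the exception among animal mRNAs in that they end in a conserved stem-loop, bound by the stem-loop binding protein SLBP, instead of a poly(A) tail, and they are degraded when DNA synthesis stops. A few of the genes can also give polyadenylated transcripts in differentiated cells. The adrenal gland joins a steroid-producing cortex to a catecholamine-producing medulla, and the mouse gland grows around birth and in the first weeks of life.

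RNA was sequenced from whole adrenal glands of an inbred mouse strain, C57BL/6J, with no treatment named in the labels. Each of the 7 libraries was 1 pool of glands: 40 at E18.5 (a stage shortly before birth, sex not given), 16 from P1 males and 22 from P1 females (P1 is postnatal day 1), 6 from each sex at 2 weeks, and 4 from each sex at 12 weeks. No group had a second library, so the age comparisons set the male and female libraries of an age against those of another age, and a pool hides the spread between animals. Values are the deposited normalized counts, and pairs of values at P1, 2 weeks and 12 weeks are given male first.

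The libraries held 15184210 to 23551289 reads in genes. Cortical markers (7 of 7 present, among them Star and Cyp11a1) summed to between 247747 and 1118690 normalized counts, and medullary markers (6 of 6, among them Th and Dbh) to between 39489 and 122824. The library labelled P1 female held Y-linked transcripts: Ddx3y stood at 604 normalized counts there, against 2782 in P1 male, 1.76 and 1.13 in the older female libraries. Xist, which is expressed in females, stood at 8103 there, against 22.1 in P1 male, and 13671 and 22167 in the older female libraries. The E18.5 library held both, Xist at 9782 and Ddx3y at 1745, so its pool held both sexes. The main results that rest on the library labelled P1 female are therefore also given without it. Markers of neighbouring organs and blood were high around birth. The 6 liver markers summed to 241542 to 352209 at E18.5 and P1, 12614 to 32883 at 2 weeks and 406 to 412 at 12 weeks, and the 6 skeletal muscle markers to 38225 to 139272, 139 to 4846, and 47.5 in each 12-week library. The 9 erythroid markers summed to 62156 to 116226, 9021 to 26225 and 5488 to 13196. No liver, muscle or erythroid marker was at 0 reads in both libraries of an age. Smaller lists were also lower in the adult libraries. The 5 kidney markers summed to 1237 to 8448 at E18.5 and P1 and to 33.6 to 41.9 at 12 weeks, where 4 of 5 were at 0 reads. The 7 neutrophil precursor markers summed to 2733 to 4524 and then 52.0 to 57.3 (Ngp and Elane at 0 reads), with 31.1 in 2-week male and 2049 in 2-week female, and the 5 lymphocyte markers summed to 73.9 to 187 and then 46.4 to 62.9. The 5 exocrine pancreas markers summed to 5381 in P1 male, 69.5 in P1 female and 0 at 12 weeks. The 5 adipocyte markers went the other way, from 2881 to 3002 at E18.5 and P1 to 40763 to 45114 at 2 weeks and 25376 to 30631 at 12 weeks. The part of these cell types in the histone results below was not tested. In whole glands, fewer dividing cells and less histone RNA per cell cannot be told apart.

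The members lie in few places (GRCm38, the assembly also called mm10). On chromosome 13, 23 members fall between 21715711 and 22043658 and 31 between 23531044 and 23934913, while Hist1h2al sits apart at 51200084 to 51203066. Chromosome 3 holds 10 members between 96219885 and 96270192, chromosome 11 holds Hist3h2a, Hist3h2ba and Hist3h2bb-ps between 58948911 and 58955192, and chromosome 6 holds Hist4h4 at 136803993 to 136804431. The stem-loop was searched in the annotated transcripts (GENCODE M21, GRCm38) as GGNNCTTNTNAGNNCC on the transcript strand. It was found in 46 of 69 members (66.7%), against 0.413% of 21810 other protein-coding genes. Of the 23 members without a match, 15 have an annotated 3′UTR shorter than 20 bases, so the stretch that would hold it is not in the transcript model. Of the 8 forms found, 6 are shown, because the stem-loop is the feature that sets these mRNAs apart from others; the forms of Hist1h4a and Hist1h3g, with 1 member each, are not. Capitals mark the loop, and the bases on either side pair to form the stem.
Shared by 26 members of H1, H2A, H2B and H3, Hist1h1c and Hist1h3b among them: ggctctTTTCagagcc
Shared by 6 members of H1, H2B and H3, Hist1h3e and Hist1h3f among them: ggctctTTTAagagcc
In Hist2h2ac: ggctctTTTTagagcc
Shared by 7 H4 members, Hist1h4c and Hist1h4d among them: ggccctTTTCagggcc
In Hist1h4i and Hist2h4: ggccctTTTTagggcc
In Hist1h4b and Hist1h4j: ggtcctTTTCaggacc
The H4 forms shown differ from the others in the stem. Within the H1, H2A, H2B and H3 forms shown the loop differs and the stem is the same, while the H4 forms differ from one another in the loop or in the stem. Hist2h2be and Hist1h2bc, whose levels are described below, had no match in annotated 3′UTRs of 2192 and 742 bases.

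Together the members were lower in adult than in newborn glands. They summed to 31429 normalized counts at E18.5 (95% exact Poisson interval 31112 to 31750), 35836 in P1 male (35501 to 36173), 50202 in P1 female (49742 to 50666), 25842 in 2-week male (25546 to 26141), 29983 in 2-week female (29665 to 30304), 9769 in 12-week male (9541 to 10001) and 8233 in 12-week female (8045 to 8424). These intervals cover counting error only, and without molecular identifiers several reads can come from 1 molecule. Both 12-week sums lay below the other 5, and both 2-week sums lay below both P1 sums. The mean over the sexes at 2 weeks was 64.9% of that at P1, and at 12 weeks it was 20.9%, a 4.78-fold difference. Against P1 male alone these shares were 77.9% and 25.1%, and the 12-week mean was also 3.49-fold below E18.5.

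**Figure D1:**
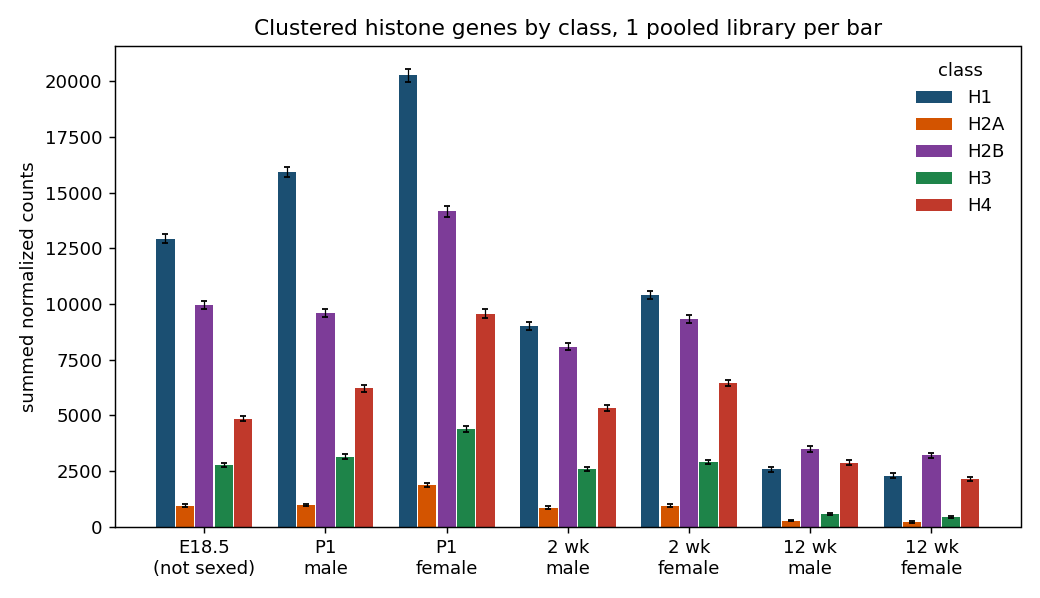
Summed normalized counts of the clustered histone genes by class (linear axis from 0), 1 bar per pooled library, with 95% exact Poisson intervals of the summed reads as error bars. H1 has the tallest bar in the 5 libraries up to 2 weeks, and H2B has it in both 12-week libraries.

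The classes did not fall by the same factor. At 12 weeks the summed level was 12.9% of P1 for H3, 13.4% for H1, 17.0% for H2A, 28.2% for H2B and 31.8% for H4. H1 also had the lowest share at 2 weeks, 53.6%, against 63.7 to 74.6% for the other classes. In P1 male, H1 supplied 44.4% of all member counts and H4 17.3%, whereas in the 12-week male library H1 supplied 26.4% and H4 29.4%. Against P1 male alone the 12-week shares were 15.3% for H1, 15.4% for H3, 24.9% for H2A, 34.9% for H2B and 40.3% for H4, so that H1 and H3 stayed the lowest classes but changed places, and the 2-week shares were 60.9% for H1 and 87.2 to 94.7% for the others. Within H3, the 4 genes for the H3.1 protein stood at 7.80% of P1 at 12 weeks and the genes for H3.2 at 15.3% (9.74% and 17.9% of P1 male). Differences between classes were not tested, and the share each class supplied also depends on how reads with several matches were counted.

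From P1 to 12 weeks, 51 of 58 tested members fell and 1 rose (limma with Benjamini-Hochberg adjustment over all genes, threshold 0.05). Over all 16720 genes 23.5% were called lower and 17.6% higher. The median difference over the tested members was -2.86 on the log2(normalized count + 1) scale, against -0.03 over all genes, and both 12-week libraries lay below both P1 libraries in 54 members. Without the library labelled P1 female 36 members were called lower and 1 higher, against 11.9% and 7.24% of all genes, with a median of -2.50, and in 54 of the 58 both 12-week libraries lay below P1 male. Of the 6 members not called, Hist1h1t, Hist1h4i, Hist1h4m, Hist2h2aa1 and Hist2h2ab had differences below 0 and Hist1h2bc had one above 0.

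**Figure D2:**
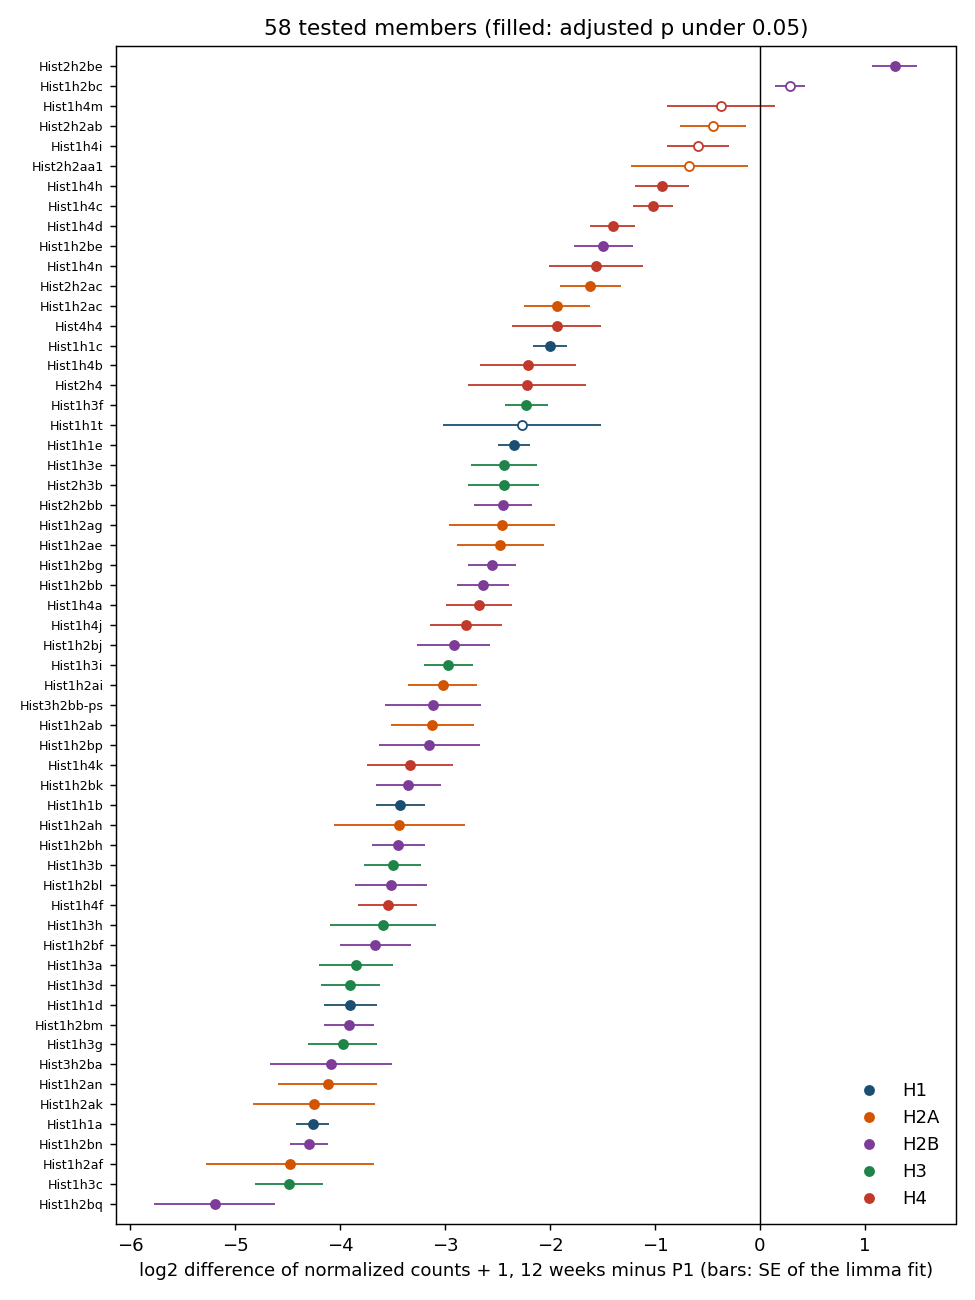
Log2 difference from P1 to 12 weeks (12 weeks minus P1, normalized counts + 1) for each of the 58 tested members, coloured by class, with the SE of the limma fit as bars and filled points for adjusted p under 0.05. Points run from -5.19 (Hist1h2bq, which had no read at 12 weeks, so that its value depends on the pseudocount) to 1.28 (Hist2h2be), with 56 of 58 left of 0.

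H1 linker histones, which bind the DNA between nucleosomes, were among the members with the highest levels per length. Hist1h1e, which codes for H1.4 and had the most counts of all members, stood at 3499 at E18.5, 4865 and 5709 at P1, 2365 and 2475 at 2 weeks, and 1100.3 and 982 at 12 weeks. It fell by 1.12 on the log2 scale from P1 to 2 weeks (SE 0.155, limma adjusted p 0.00732) and by 1.22 from 2 to 12 weeks (SE 0.155, adjusted p 0.00524). Without the library labelled P1 female its difference from P1 to 2 weeks was -0.98 and was not called. The libraries of each age were separate from those of the next. Hist1h1a, which codes for H1.1, stood at 3714 at E18.5, 3507 and 5289 at P1, 2569 and 3038 at 2 weeks, and 206 and 244 at 12 weeks. It fell by 4.26 from P1 to 12 weeks (SE 0.158, adjusted p 7.72e-05), to 5.11% of its P1 level, and from 2 to 12 weeks it fell by 3.63. Per kilobase of coding sequence, Hist1h1e went from 8010.2 normalized counts at P1 to 1578 at 12 weeks, and Hist1h1a from 6851 to 350.4, so similar starting levels ended far apart. Levels per kilobase, here and below, divide all counts of a gene by its coding length. They leave out annotated 3′UTRs, of 1209 bases in Hist1h1e and 48 in Hist1h1a. Hist1h1c, which codes for H1.2 and is known to give polyadenylated transcripts too, stood at 1781 at E18.5, 3051 and 3065 at P1, 1343 and 1642 at 2 weeks, and 808 and 725 at 12 weeks. It fell by 1.04 from P1 to 2 weeks (adjusted p 0.010) and stood at 25.1% of P1 at 12 weeks (adjusted p 0.000354). The difference of Hist1h1c from P1 to 2 weeks was -1.07 without the library labelled P1 female and was likewise not called. The testis H1 gene Hist1h1t was low throughout, at most 27.0 normalized counts, and its difference of -2.26 was not called (adjusted p 0.0517). In all, 5 of 6 H1 members fell by 12 weeks, also without the library labelled P1 female.

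The H2A members had the lowest summed counts of the classes, with 12 of 19 tested, and 10 of these fell from P1 to 12 weeks. Much of their sequence recurs in other genes: the median H2A member shares 67.6% of its 50-base windows with another gene, against 1.13% for H1. Every H2A member also overlaps another gene model of GENCODE M21, while most other members do not. Counts of single H2A genes, and the rank of H2A and H1 among the classes, therefore depend on the authors' counting. How it treated reads with several matches or over several gene models is not given. Hist2h2ac stood at 189.9 at E18.5, 251 and 318 at P1, 245 and 252 at 2 weeks, and 116 and 72.4 at 12 weeks and fell by 1.61 (SE 0.287, limma adjusted p 0.00576), or 3.02-fold. Both adult libraries were below every younger one. Hist1h2af stood at 87.4 at E18.5, 152 and 562 at P1, 171 and 209 at 2 weeks, and 25.2 and 5.66 at 12 weeks, with the P1 female value 3.69 times the P1 male one. It fell by 4.48 (SE 0.798, adjusted p 0.00578), and this was not called without that library (difference -3.12, adjusted p 0.0796), and the same held for Hist2h2ac (-1.29, adjusted p 0.0860). Without it, 5 of 12 H2A members were called lower (Hist1h2ab, Hist1h2ae, Hist1h2ah, Hist1h2ai and Hist1h2an). Hist2h2ab (-0.45, adjusted p 0.293) and Hist2h2aa1 (-0.67, adjusted p 0.370), both on chromosome 3, were not called. Hist1h2aa, a testis gene, had 1 read, in the E18.5 library.

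In H2B 15 of 17 tested members fell and 1 rose, and the class holds the 2 members with a difference above 0, Hist2h2be and Hist1h2bc. Hist2h2bb, the member with the highest level per kilobase of coding sequence, stood at 3913 at E18.5, 3463 and 5585 at P1, 2756 and 3477 at 2 weeks, and 970.3 and 669.8 at 12 weeks and fell by 2.45 (SE 0.280, limma adjusted p 0.00115). Hist1h2bb stood at 1737 at E18.5, 1409.9 and 1961 at P1, 1148 and 1240.4 at 2 weeks, and 323 and 219 at 12 weeks and fell by 2.64 (SE 0.251, adjusted p 0.000586). In both, the adult libraries lay far below all others. Hist1h2bq had 12.6 normalized counts at E18.5, 23.7 and 53.0 at P1, 29.4 and 27.3 at 2 weeks and no read at 12 weeks. Set against a floor of 3 reads per library, it was at least 10.1-fold lower at 12 weeks than the mean of both P1 libraries. That bound leans on the library labelled P1 female (53.0, against 23.7 in P1 male) and is smaller against P1 male alone. Hist1h2bq shares 97.3% of its 50-base windows with another gene, Hist1h2br first among them, so its own level is uncertain. Without the library labelled P1 female 13 of 17 H2B members were called lower.

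Hist2h2be was the 1 member that rose. It stood at 187 at E18.5, 134 and 146 at P1, 228 and 249 at 2 weeks, and 380.3 and 308 at 12 weeks normalized counts, so that each age lay above the one before it from P1 on, with no overlap, while E18.5 was between P1 and 2 weeks. The 12-week mean was 2.46 times the P1 mean, and the difference was 1.28 (SE 0.215, limma adjusted p 0.00457). Across 14 other settings the adjusted p ran from 0.00107 to 0.0591, and the call was lost in 1 of them, without P1 male (difference 1.18). Its transcript shares 0% of its 50-base windows with other genes, so no such stretch of it matches another member. Hist1h2bc stood at 882 at E18.5, 1003 and 1131 at P1, 957 and 1135 at 2 weeks, and 1151 and 1461 at 12 weeks and its difference of 0.28 was not called (adjusted p 0.157). At 12 weeks Hist1h2bc had 3427 normalized counts per kilobase of coding sequence, above Hist1h4d with 3410.5 and Hist2h2bb with 2152, whereas at P1 it had 2801 against 9098 and 11874. This order between genes is uncertain, because the measure leaves out annotated 3′UTRs. They have 742 bases in Hist1h2bc, 822 in Hist1h4d and 0 in Hist2h2bb. Hist1h2bc shares 30.6% of its windows, chiefly with Hist1h2bg.

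These 2 genes belong to a group of 6 members known to give polyadenylated transcripts (Hist1h1c, Hist1h2bc, Hist1h2be, Hist2h2be, Hist3h2a and Hist3h2ba). Of the 5 tested, Hist1h1c, Hist1h2be and Hist3h2ba fell and Hist2h2be rose from P1 to 12 weeks, with a median of -1.49 against -2.97 over the other 53 tested members, of which 48 fell. Their summed level at 12 weeks was 51.6% of P1, and that of the other members 16.6% (55.0% and 20.3% of P1 male). Without the library labelled P1 female Hist1h1c fell and Hist2h2be rose among the 5, with a median of -1.01, and 35 of the other 53 fell, with a median of -2.52. Hist1h2be stood at 602 at E18.5, 656 and 1123 at P1, 741 and 765 at 2 weeks, and 351 and 265 at 12 weeks and fell by 1.49 (adjusted p 0.00693), a call that was lost without the library labelled P1 female (adjusted p 0.0612). Annotated 3′UTR length gave a split in the same direction. The 21 tested members with at least 200 bases had a median of -2.22, with 17 lower and 1 higher, and the 36 with fewer had a median of -3.24, with 33 lower. With the library labelled P1 female left out, the medians were -2.03, with 10 lower and 1 higher, and -3.10, with 25 lower. Sequence shared with other genes gave a split of similar size. The 34 tested members with at most 50% of their 50-base windows shared had a median of -2.46. The 24 with more had one of -3.34 (-2.22 and -3.10 with the library labelled P1 female left out). All these groupings overlap, and the differences between them were not tested.

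All 10 tested H3 members fell, and the median of -3.54 was the lowest of the classes, beside -2.88 for H1, -2.75 for H2A, -3.15 for H2B and -1.94 for H4. With the library labelled P1 female left out, these medians were -3.33 for H3, -2.81 for H1, -2.74 for H2A, -3.08 for H2B and -1.28 for H4. Hist1h3e, an H3.2 gene, stood at 395 at E18.5, 651 and 915 at P1, 516 and 545 at 2 weeks, and 189 and 106 at 12 weeks and fell by 2.44 (SE 0.311, limma adjusted p 0.00174). Hist1h3f stood at 364 at E18.5, 553 and 677 at P1, 431 and 529 at 2 weeks, and 139.8 and 121 at 12 weeks and fell by 2.22 (SE 0.207, adjusted p 0.000550). In these most abundant H3 members the 12-week libraries were below all others. Hist1h3c stood at 202 at E18.5, 214 and 317 at P1, 157 and 179 at 2 weeks, and 12.6 and 9.05 at 12 weeks and had the lowest difference in the class, -4.48 (SE 0.328, adjusted p 0.000262). Without the library labelled P1 female, 9 of 10 H3 members were called lower, and Hist2h3b, on chromosome 3, was not (adjusted p 0.0502).

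The H4 members, all coding for the same protein, had the median nearest to 0 of the classes. Of 13 tested, 11 were called lower, against 4 (Hist1h4a, Hist1h4f, Hist1h4j and Hist1h4k) without the library labelled P1 female, and 6 from 2 to 12 weeks. Hist1h4d, second of all members per kilobase of coding sequence, stood at 1609 at E18.5, 2339 and 3338 at P1, 2139 and 2506 at 2 weeks, and 1180.0 and 948 at 12 weeks and fell by 1.40 (SE 0.213, limma adjusted p 0.00319, and 0.0502 without that library). Hist1h4c stood at 679.7 at E18.5, 776 and 810.2 at P1, 519.5 and 696 at 2 weeks, and 412 and 371 at 12 weeks, a fall of 1.02 (adjusted p 0.00705), and Hist1h4h fell by 0.94 (adjusted p 0.0275). In Hist1h4h the E18.5 and 12-week male libraries were level, at 489.8 and 487, and neither this call nor that of Hist1h4c held without the library labelled P1 female (adjusted p 0.227 and 0.0689). Hist1h4f, on the other hand, stood at 608 at E18.5, 711 and 954 at P1, 469 and 629.9 at 2 weeks, and 83.9 and 57.7 at 12 weeks and fell by 3.55 (adjusted p 0.000310). Genes for one and the same protein ended between 8.51% (Hist1h4f) and 70.5% (Hist1h4m) of their P1 level. The upper end is uncertain. Hist1h4m was not called and was low, with 86.8 normalized counts per kilobase of coding sequence at P1, against 2668 for Hist1h4f. It shares 89.8% of its 50-base windows with other genes, and its difference was 0.31 without the library labelled P1 female. Hist4h4, alone on chromosome 6, stood at 426 at E18.5, 511 and 832 at P1, 354 and 476 at 2 weeks, and 252 and 114 at 12 weeks and fell by 1.94 (adjusted p 0.0122, and 0.159 without the library labelled P1 female).

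The timing differed within the set. From P1 to 2 weeks 5 of 58 members fell and none rose (limma), against 10.5% of all genes lower and 5.89% higher, so the share of members called lower was not above that of all genes. At an unadjusted p under 0.05 there were 12 (20.7%, against 32.4% of all genes), and edgeR's quasi-likelihood test called 7 lower and 0 higher. The 5 were Hist1h1a, Hist1h1c, Hist1h1e, Hist3h2ba and Hist3h2bb-ps, and the count ranged from 0, without any 1 of the P1 or 2-week libraries, to 13 without 12-week male and 14 without 12-week female. Without either 12-week library Hist2h2be was called higher in this interval. The median difference over members was -0.48, but -0.17 without the library labelled P1 female and -0.75 without P1 male, and in 31 members both 2-week libraries lay below both P1 libraries. From 2 to 12 weeks 44 members fell and none rose, against 9.89% of all genes lower and 5.4% higher, with a median of -2.28. At an unadjusted p under 0.05 there were 52 (89.7%, against 32.5% of all genes), and edgeR called 44 lower and 0 higher. Without 2-week female 16 were called lower, without 2-week male 18 and without the library labelled P1 female 30, and with every gene of a mean above 0 in the fit 0 were called in either interval. In 52 members both 12-week libraries lay below both 2-week libraries. Apart from Hist1h2bq, which had no read at 12 weeks, the lowest differences of this interval were in Hist1h3g (-3.90) and Hist1h3c (-3.85), and the smallest among those called were in Hist1h1c (-0.96), Hist1h4d (-1.13) and Hist1h1e (-1.22).

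The chromosome 11 members had their drop early. Hist3h2ba stood at 148 at E18.5, 124 and 151 at P1, 19.6 and 22.9 at 2 weeks, and 14.0 and 3.39 at 12 weeks, and it fell by 2.63 from P1 to 2 weeks (SE 0.583, limma adjusted p 0.0287). Its neighbour Hist3h2bb-ps stood at 121 at E18.5, 114 and 152 at P1, 36.5 and 29.1 at 2 weeks, and 22.4 and 9.05 at 12 weeks and fell by 1.98 in that interval (SE 0.456, adjusted p 0.0321). In all 3 libraries up to P1 both lay above every later value, and neither difference from 2 to 12 weeks was called (adjusted p 0.141 and 0.142). Without the library labelled P1 female the differences from P1 to 2 weeks were -2.10 for Hist3h2ba and -1.39 for Hist3h2bb-ps and were not called (adjusted p 0.231 and 0.226). The 6 liver and 6 skeletal muscle markers fell in the same interval, all 12 called (2 and 0 without that library), and their part in this result was not tested.

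Genes that lie back to back could be compared as pairs. Among the members 13 H2A and H2B pairs point away from each other across 163 to 280 bases. Both genes of a pair were tested in 8 of them, both fell from P1 to 12 weeks in 6 (4 without the library labelled P1 female), and the median absolute difference within a pair was 0.48 on the log2 scale. The pair Hist1h2ak and Hist1h2bn ended at 4.86% and 4.91% of P1, with falls of 4.25 and 4.29 (the first not called without the library labelled P1 female, adjusted p 0.0588). In Hist2h2ac and Hist2h2be, by contrast, 1 gene fell and the other rose, 2.90 apart. The fall of Hist2h2ac was not called without the library labelled P1 female (difference -1.29). The rise of Hist2h2be was not called without P1 male (difference 1.18). In Hist1h2ac and Hist1h2bc, the first fell by 1.93 (limma adjusted p 0.00414, and 0.0517 without the library labelled P1 female) while the second was not called, 2.22 apart.

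**Figure D3:**
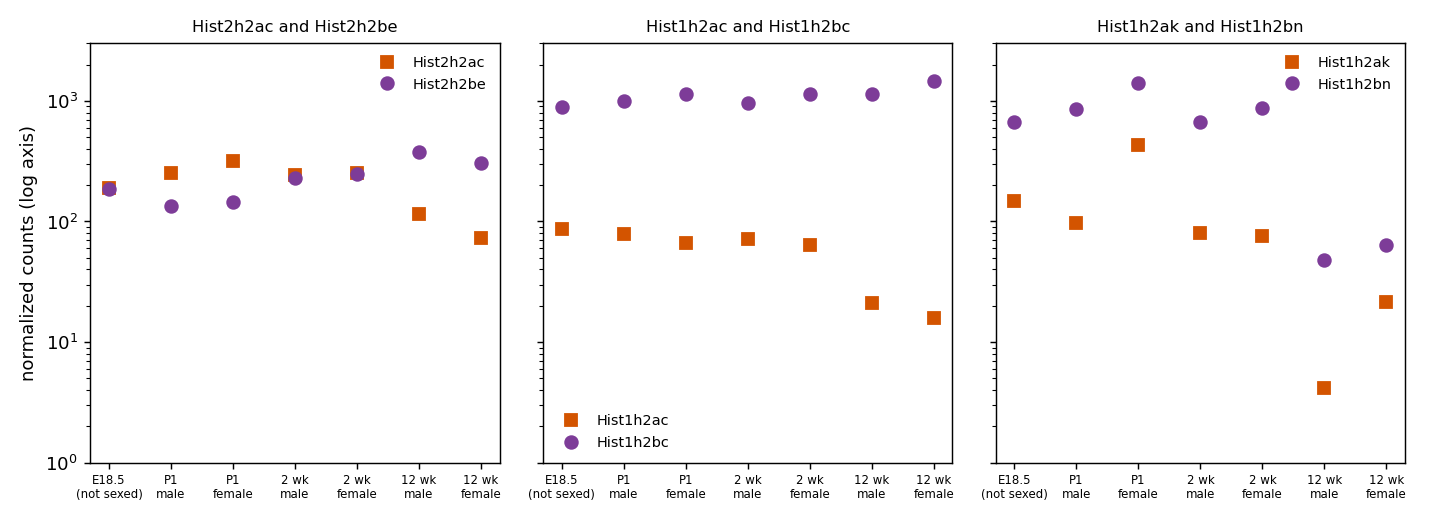
Normalized counts (log axis) of both genes of 3 back-to-back pairs in each pooled library, with squares for the H2A gene and circles for the H2B gene. Hist2h2ac and Hist2h2be cross between 2 and 12 weeks, Hist1h2ac drops while Hist1h2bc stays between 882 and 1461 counts, and Hist1h2ak and Hist1h2bn drop together.

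The stretches between the genes of these 3 pairs are shown because each serves as upstream region for both neighbours. They run from the start of the H2A gene, on the minus strand, to the start of the H2B gene, and are printed on the plus strand of GRCm38 from the RefSeq promoter table. Capitals mark the TATA box (TATAAA), the CCAAT box and the octamer ATTTGCAT, known from H2B promoters, on either strand.
Hist2h2ac to Hist2h2be, chr3:96220881-96221071: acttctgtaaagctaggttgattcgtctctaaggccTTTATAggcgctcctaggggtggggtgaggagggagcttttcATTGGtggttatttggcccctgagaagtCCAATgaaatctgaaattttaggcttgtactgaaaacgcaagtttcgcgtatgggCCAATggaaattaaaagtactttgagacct
Hist1h2ac to Hist1h2bc, chr13:23683960-23684198: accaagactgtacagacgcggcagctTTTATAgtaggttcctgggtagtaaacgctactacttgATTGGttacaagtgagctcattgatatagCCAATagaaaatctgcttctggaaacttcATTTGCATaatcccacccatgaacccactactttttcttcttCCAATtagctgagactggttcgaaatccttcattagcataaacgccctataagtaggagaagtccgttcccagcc
Hist1h2ak to Hist1h2bn, chr13:21753913-21754075: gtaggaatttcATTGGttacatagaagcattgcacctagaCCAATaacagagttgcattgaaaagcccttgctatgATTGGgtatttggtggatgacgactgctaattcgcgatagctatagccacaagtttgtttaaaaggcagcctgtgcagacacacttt
In the first and second stretch the single TATAAA match reads toward the H2A gene, and in the third stretch there was no exact match. All 3 hold 3 CCAAT matches, and the octamer matched in the stretch between Hist1h2ac and Hist1h2bc. The stretch before Hist1h4d, the most abundant H4 member, is given for contrast.
Hist1h4d, chr13:23581418-23581567, plus strand: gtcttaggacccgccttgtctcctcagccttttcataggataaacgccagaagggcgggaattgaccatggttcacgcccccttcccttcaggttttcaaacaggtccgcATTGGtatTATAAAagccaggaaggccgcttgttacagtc
Over the 62 members with an entry in that table (windows of 300 bases, both strands), TATAAA was present in 56.5%, CCAAT in 85.5% and ATTTGCAT in 22.6%. The shares over all 32851 windows were 13.6%, 37.4% and 1.74%. CCAAT was present in all H1, H2A, H2B and H3 windows and in 3 of 12 H4 windows (Hist1h4a, Hist1h4c and Hist1h4d), and the octamer in 7 of 16 H2B windows and 7 of 18 H2A windows, which overlap within pairs. Such matches describe the letters and are not evidence of binding.

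Genes around the histone pathway were counted for the same intervals. Of 26 S-phase genes tested, 24 fell from P1 to 12 weeks (limma), against 23.5% of all genes, and Pola1 and E2f1 were not called. From 2 to 12 weeks 25 fell, against 9.89% of all genes. From P1 to 2 weeks none fell, against 10.5% of all genes. Pcna, the DNA polymerase clamp, rose by 0.57 in that interval (limma adjusted p 0.0420), in which 5.89% of all genes were called higher. Mcm6, of the replicative helicase, stood at 3473 at E18.5, 2424 and 2992 at P1, 3126 and 2877 at 2 weeks, and 667 and 724 at 12 weeks. Ccna2, the S-phase and G2 cyclin, fell most, by 4.02 from P1 to 12 weeks (adjusted p 7.72e-05), and E2f1 had the difference nearest to 0 (-0.38, adjusted p 0.225). All 10 mitotic genes fell from P1 to 12 weeks, Mki67 with a difference of -4.33 (adjusted p 6.85e-05) and Plk1 with -5.20 (adjusted p 0.000537). As sums, the S-phase list was at 110.9% of P1 at 2 weeks and 31.3% at 12 weeks, the mitotic list at 79.0% and 5.85%, and the clustered histones at 64.9% and 20.9%. Against P1 male alone the shares were 124% and 35.1% for the S-phase list, 78.5% and 5.81% for the mitotic list, and 77.9% and 25.1% for the clustered histones. The clustered histones lay between the other lists at 12 weeks in both. At 2 weeks their share was below that of the mitotic list in both. Against P1 male alone that margin was small, at 77.9% and 78.5%, and it was wider with the library labelled P1 female. Without that library 19 of 26 S-phase genes and all 10 mitotic genes were called lower from P1 to 12 weeks, and Pcna was not called from P1 to 2 weeks (adjusted p 0.121).

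**Figure D4:**
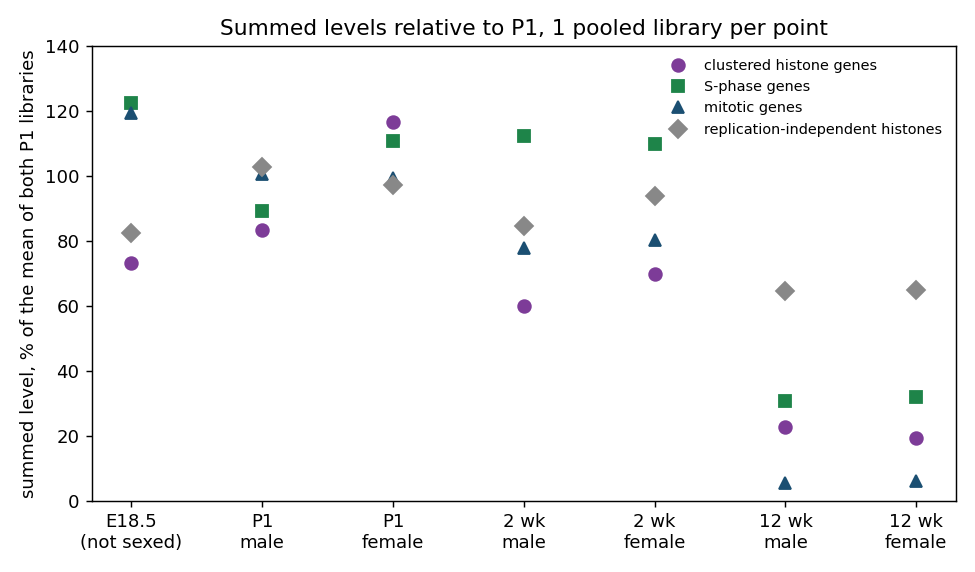
Summed level of 4 gene lists in each pooled library as a percentage of the mean of both P1 libraries (linear axis from 0). At 2 weeks the clustered histones (circles) lie lowest, at 60.1% and 69.7%, and at 12 weeks the mitotic genes lie lowest and the replication-independent histones highest.

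A list of 11 histone variant genes outside the clusters, named replication-independent here, kept more of its summed level, 89.1% of P1 at 2 weeks and 64.8% at 12 weeks. The list includes H2afx and Cenpa, and in which cell cycle phase its genes were expressed was not measured. From P1 to 12 weeks 7 of 11 fell (limma), against 23.5% of all genes. Their median difference was -0.96, and -1.08 without the library labelled P1 female. H3f3a, a gene for H3.3, stood at 4823 at E18.5, 5594 and 4794 at P1, 5163 and 6158 at 2 weeks, and 4822 and 4752 at 12 weeks and was not called (-0.11, adjusted p 0.615). H1f0, the linker histone of resting cells, fell by 0.96 (adjusted p 0.00356), and the variant with the highest difference, H2afj, was not called (0.15, adjusted p 0.585). Of 15 genes tested for histone mRNA transcription and 3′ end processing, 2 fell from P1 to 12 weeks, Casp8ap2 and Lsm11, by 0.63 and 0.67 (adjusted p 0.0407 and 0.0287). That share is below the 23.5% of all genes called lower, and without the library labelled P1 female neither was called (adjusted p 0.204 and 0.103). Slbp stood at 839 at E18.5, 603 and 627 at P1, 929 and 1003 at 2 weeks, and 512 and 466 at 12 weeks. It rose by 0.65 from P1 to 2 weeks (adjusted p 0.0379) and fell by 0.98 from 2 to 12 weeks (adjusted p 0.0109), the rise not being called without the library labelled P1 female (adjusted p 0.151), so its highest libraries were those of 2 weeks, E18.5 coming next. Of 13 histone chaperones 5 fell, beside the same 23.5% of all genes (Asf1b, Chaf1a, Chaf1b, Nasp and Ubn1, the last not called without that library, adjusted p 0.132), Asf1b by 3.03 (adjusted p 0.000784), while Atrx and Rbbp7, the most abundant, were not called.

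E18.5 was set against each P1 library without a test, since both sides are 1 library. Against P1 male the median over the 58 members was 0.13 on the log2 scale, with none at least 2-fold higher (4.9% of all genes) and 1, Hist1h4m, at least 2-fold lower (3.5%). Among members that reach 100 normalized counts in at least 1 of the 2 libraries, Hist1h2af (0.79) and Hist1h1c (0.78) had the highest differences, and Hist1h2ak (-0.61) and Hist1h3d (-0.49) the lowest. Against the library labelled P1 female the median was 0.64, with 12 members at least 2-fold higher (7.04% of all genes) and none at least 2-fold lower (6.12%). Under the same limit Hist1h2af (2.67) and Hist2h4 (2.16) were highest and Hist2h2be (-0.35) and Hist1h3b (-0.22) lowest. The step from E18.5 to P1 therefore depended on which P1 library was used.

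Across the 3 postnatal ages no member was called between the sexes (limma, smallest adjusted p 0.999), 4 (Hist1h1a, Hist1h2ak, Hist1h2bn and Hist1h3d, all lower in males) had an unadjusted p under 0.05 (6.9%, against 3.12% of all genes), and edgeR's quasi-likelihood test on the recovered reads called none. Over all genes 0.00598% were called lower in males and 0% higher. This fit uses the library labelled P1 female, which held Y-linked transcripts. The median over members in the fit was -0.08, and it was 0.09 without that library. The single-library differences, male minus female, had opposite signs at different ages. The P1 values set P1 male against the library labelled P1 female, whose pool was not female only. There 51 of 58 members were below 0 with a median of -0.48 (all genes -0.02). At least 2-fold lower in P1 male were 8 members (3.03% of all genes), and none was higher (3.75%). Hist2h4, an H4 gene on chromosome 3, stood at 298 in the male and 1219.7 in the female library of P1, and Hist1h2ak at 96.6 and 432. With Hist1h2af these were the members over 3-fold apart, while Hist1h2bg (0.04) and Hist1h1b (0.02) were level. Hist2h4 reached 435 at most in any other library, and its fall to 12 weeks (2.22, adjusted p 0.0210) was not called without P1 female (-1.09, adjusted p 0.114). At 2 weeks 49 members were below 0 with a median of -0.22, none of them at least 2-fold lower (3.67% of all genes) and no member 2-fold higher (0.568%), and those with at least 100 normalized counts ran from Hist1h4f (-0.43) and Hist4h4 (-0.42) to Hist1h2bj (0.09) and Hist1h2bh (0.26). At 12 weeks 46 were above 0 with a median of 0.41, and 7 were at least 2-fold higher in males (4.84% of all genes) and 2, Hist1h2ah and Hist1h2ak, lower (3.98%). Hist4h4 (1.13) and Hist1h3e (0.82) were highest and Hist1h2bc (-0.34) and Hist1h1a (-0.25) lowest among members with at least 100 normalized counts.

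RNAs that carry no poly(A) tail had summed sex differences of the same sign as the clustered histones at each age. Each value sets 1 library against 1 other, and the P1 value uses the library labelled P1 female. The 8 genes measured of this list, Rn7sk and Rn7s1 the most abundant, had a log2 ratio of male to female sums of -1.03 at P1, -0.42 at 2 weeks and 0.67 at 12 weeks, beside -0.49, -0.21 and 0.25 for the clustered histones. Rn7sk stood at 299002 in P1 male and 616932 in P1 female, and at 1123250 and 569175 in the male and female 12-week libraries. The S-phase list, whose mRNAs are polyadenylated, had -0.31, 0.03 and -0.05, and the mitotic list had 0.02, -0.05 and -0.16. The part of the RNAs without a poly(A) tail in the histone differences was not tested. Across ages the summed list was at 103.0% of P1 at 2 weeks and at 200.7% at 12 weeks. Gene by gene, 6 of 8 were below 0 from P1 to 2 weeks, with a median of -0.28 (0.21 without the library labelled P1 female). From P1 to 12 weeks none was below 0, and the median was 1.15 (1.10 without that library, where Terc was at -0.16). Over this interval limma called Rn7s1, Rny1 and Rny3 higher and none of the 8 lower, against 17.6% and 23.5% of all genes. Without that library the differences of Rn7s1, Rny1 and Rny3 were 2.64, 2.34 and 1.05, and the call of Rny3 did not hold.

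**Figure D5:**
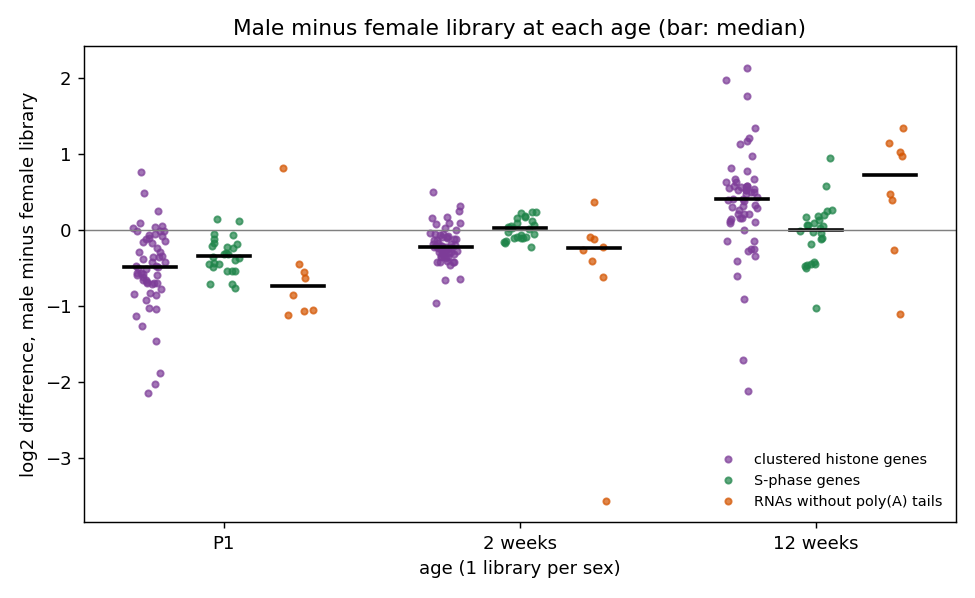
Log2 difference between the male and the female library at each postnatal age (log2 of normalized counts + 1, male minus female) for each tested clustered histone gene, S-phase gene and RNA without a poly(A) tail, with medians as bars. The histone median goes from -0.48 at P1 to 0.41 at 12 weeks, the non-polyadenylated RNAs from -0.74 to 0.72, and the S-phase median is near 0 at 2 and 12 weeks. The P1 values use the library labelled P1 female, which held Y-linked transcripts.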

How the data were processed

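RNA from 7 pools of adrenal glands was sequenced. The authors deposited 1 table of normalized counts, a signal made per the submitters' processing notes with CASAVA 1.8.2, HISAT2 2.1.0, HTSeq 0.9.1 and DESeq2 2.11.40.6 on mm10. Their settings, the annotation, the use of strand, the handling of reads with several matches and any selection of poly(A) RNA are not given in the sources used here. Each deposited value was a whole number of reads divided by 1 size factor per library (100% of values within 0.01 reads), and the recovered reads gave the library depths (15184210 to 23551289 reads in genes). The depth sets the counting error only, since every group is 1 library.

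Genes with a mean of at least 10 (16720 of 35976) were fitted on log2(value + 1), which understates the change of low genes, with limma 3.58.1 in R 4.3.3 (lmFit, eBayes with trend), two-sided, on the 6 postnatal libraries with age and sex as terms and Benjamini-Hochberg adjustment over all genes at 0.05. E18.5 has no sex label and entered no fit. With sex as a term, the p-values measure how far the difference between the male and the female library varies over the 3 ages. edgeR 4.0.16 on the recovered reads was an alternative, as were other pseudocounts (0.1 and 5), other filters (a mean above 0, or of at least 50), scaling to equal totals, no trend, no sex term and leaving out each library. On simulated data with 200 genes of 16720 changed by 2 on the log2 scale, 86.0% of lower genes were recovered from P1 to 2 weeks (6.01% of calls false) and 90.5% from P1 to 12 weeks (3.21% false). The simulation held no sex difference, no library of mixed sex and far fewer changed genes than were called here. It therefore does not give the reliability of the calls in these libraries.

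The members and gene lists were chosen with earlier results of these data known. Members named with values are the 2 highest of each class by mean, those outside the Hist1 symbols, the lists of polyadenylated and testis members, the 3 highest and 3 lowest called in each age comparison and in each single-library comparison the 2 at either end that reach 100 normalized counts. Of each pathway list they are the 2 highest by mean and the extremes from P1 to 12 weeks. Hist1h2ac, Hist1h2ak and Hist1h2bn (as pairs), Hist1h2bq, Hist1h4f, Hist1h4m, Slbp, Casp8ap2, Lsm11, Pcna and short counts were named after their values were seen. Positions and promoters come from RefSeq (GRCm38.p6, all 69 members matched by symbol or synonym), transcripts from GENCODE M21. No protein sequence was used here.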

Additional observations from a re-analysis of the deposited data

Results flagged for a closer look

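The sign of the difference between the sexes was not the same at all ages. The log2 ratio of the male to the female summed level of all members was -0.49 at P1, -0.21 in the 2-week and 0.25 in the 12-week libraries. It was -0.35, -0.21 and 0.17 for H1, -0.56, -0.20 and 0.13 for H2B, -0.48, -0.16 and 0.40 for H3, and -0.62, -0.28 and 0.43 for H4. H2A had -0.95, -0.14 and 0.37, with counting intervals that overlapped at 2 and 12 weeks. Each ratio sets 1 library against 1 other, and the difference between ages was not tested. The P1 ratio uses the library that is labelled female and holds Y-linked transcripts.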

How the results depend on the processing

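No paired analysis was possible because the labels carry no replicate numbers and each group is 1 library. Leaving out 1 library moved the members called lower from P1 to 2 weeks between 0 and 14 (higher between 0 and 1), from 2 to 12 weeks between 16 and 51, and from P1 to 12 weeks between 36 and 52 (higher between 0 and 1). With all genes of a mean above 0, no member was called lower from P1 to 2 weeks (0) or from 2 to 12 weeks (0), and without the trend 2 were in the first interval. Scaling to equal totals, or no term for sex, called 1 higher from P1 to 2 weeks, Hist2h2be. The sums under scaling to equal totals were 33302 at E18.5, 37888 in P1 male, 28118 and 31225 at 2 weeks, and 9375 and 7681 at 12 weeks. Without Hist1h1e they were 27931, 30971, 44494 in P1 female, 23477, 27509, 8668 and 7251. The median from E18.5 to P1 male was 0.10 with a mean above 0 and 0.17 with a mean of at least 50, and to P1 female 0.52, 0.72 and, with equal totals, 0.56. With equal totals the sex medians were -0.40 at P1 and -0.15 at 2 weeks, and at 12 weeks 0.33 with a pseudocount of 5 and 0.47 with a mean of at least 50. Of 1398 values of called members under alternatives, 1195 kept the call, 203 lost it and 0 changed sign. The cause of these shifts was not tested. Where an alternative leaves 1 library at an age, that library is assumed to vary like the others.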
